A study of Mus musculus with 8 samples.

Results

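The 33 genes described here code for the chaperones, degradation factors and stress sensors of the endoplasmic reticulum (ER), and they were followed in mouse embryonic stem cells (mESCs) with and without Importin-13 (IPO13), before and after oxidative stress. They were picked by symbol from a list of ER chaperone and unfolded protein response genes, by a rule that uses no measured value, and all 33 were found among the 23420 gene symbols of the count files. RNA-seq libraries came from IPO13+/+ and IPO13-/- mESCs derived from day 5 preimplantation blastocysts on a 129 x C57BL/6 background, grown on gelatin with LIF and no feeder cells. Each genotype was sampled untreated and after 125 µM hydrogen peroxide (H2O2) for 1 h with 2 h of recovery in clean medium, which gives 4 groups of 2 libraries. The labels do not say how many clones of each genotype were used or whether replicate numbers stand for separate cultures, so differences between the lines cannot be told apart from the loss of IPO13, and the p-values measure the spread between libraries that may be technical.

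Proteins that enter the ER are folded by the chaperones HSPA5 (BiP) and HSP90B1, by the lectins calnexin and calreticulin and by disulfide isomerases, and those that fail to fold are sent back to the cytosol for degradation. When unfolded proteins build up, IRE1 (the product of Ern1), ATF6 and PERK (the product of Eif2ak3) signal from the ER membrane to the nucleus: IRE1 splices the mRNA of the transcription factor XBP1, ATF6 is cut to release a transcription factor, and PERK slows translation and favours that of ATF4. HSPA5, HERPUD1 and DNAJB9 are among the best-known products induced by these branches.

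The best-known DNA element of ER stress genes is the ER stress response element (ERSE), CCAAT and CCACG separated by 9 bases of any kind, which is bound by NF-Y with ATF6 or XBP1. RefSeq promoter windows on GRCm38.p6, 250 bases before to 50 bases after a start site, were at hand for 28 of the 33 genes, and a search of both strands found the ERSE in 9 of them (32.1%), against 37 of all 27025 symbols with a window (0.137%). The shorter ERSE-II, ATTGG and CCACG with 1 base between them, was found in Herpud1 and Dnajb11 and in 12 of all symbols (0.0444%). The ERSE is known from ER stress genes and the 33 were picked as such, so its excess among them is not an independent finding. The elements of the genes that passed the test in at least 1 comparison are shown. Each element is read 5′ to 3′ on the strand of its gene with 5 bases on either side. Capitals mark the fixed letters of the element, in the reverse complement where the element lies on the opposite strand.
Hspa5 (chr2:34772020-34772048, + strand): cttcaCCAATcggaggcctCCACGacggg
Hsp90b1, distal (chr10:86705633-86705661, - strand): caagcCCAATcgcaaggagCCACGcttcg
Hsp90b1, proximal (chr10:86705528-86705556, - strand): gagtgCGTGGtgaggcacgATTGGtgagt
Calr (chr8:84847070-84847098, - strand): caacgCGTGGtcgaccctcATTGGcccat
Canx (chr11:50325795-50325823, - strand): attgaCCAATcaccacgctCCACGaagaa
Creld2 (chr15:88819515-88819543, + strand): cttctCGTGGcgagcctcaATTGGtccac
Syvn1 (chr19:6046527-6046555, + strand): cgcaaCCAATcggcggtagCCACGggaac
Herpud1 (chr8:94386372-94386392, + strand): cgctgATTGGgCCACGttgga
Dnajb11 (chr16:22857847-22857867, + strand): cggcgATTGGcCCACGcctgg

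Counted from the RefSeq start site, the element of Hspa5 spans bases -65 to -47, those of Hsp90b1 -212 to -194 and -107 to -89, and that of Herpud1 -52 to -42. GENCODE M21 places the Hspa5 stretch in a 5′ untranslated exon of a longer Hspa5 transcript, the Dnajb11 stretch in the untranslated first exon and the Herpud1 stretch in an intron of the antisense gene Gm15890, and has no transcript over the others. The remaining matches lay in Dnajc3, Pdia6 and Derl3. Of the parts of the element on their own, including those inside an ERSE, CCAAT was found in 85.7% of the 28 genes with a window and in 41.1% of all symbols with a window. For CCACG these shares were 78.6% and 35.5%. The letters TGACGTGG (the unfolded protein response element) and TGATGNAAT (the element bound by ATF4 and C/EBP factors) were in 0 of the 28 genes, against 0.714% and 1.08% of all symbols. A match is a description of the sequence and not a measured binding site. Of the 9 genes with an ERSE, 1 rose and 3 fell after H2O2 in IPO13+/+ cells (median log2 fold change -0.08), and 1 rose and 2 fell in IPO13-/- cells (-0.07). Of the 19 other genes with a window, 3 rose and 3 fell in IPO13+/+ cells (-0.04), and 6 rose and 6 fell in IPO13-/- cells (-0.08). Over all genes tested 11.5% rose and 13.8% fell in IPO13+/+ cells, and 14.9% rose and 14.4% fell in IPO13-/- cells.

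Between 60397877 and 73789079 reads were counted on genes per library, and the 33 genes took 0.623% to 0.660% of them. No member was near the limit of detection of 3 counts, since the lowest member count was 219 (Derl3) and the highest 79200 (Hspa5). Ipo13 itself stood at 70.3 and 68.3 TMM CPM (CPM after scaling by the trimmed mean of M values) in untreated and 72.4 and 69.3 in H2O2-treated IPO13+/+ cells, and at 26.0, 25.0, 24.9 and 25.9 in the IPO13-/- libraries, so its transcript fell by 63.2% and 64.2% in the knockout cells and was still detected. The 2 untreated IPO13+/+ libraries differed most from each other (chi-square per gene of 15, against 2.26 to 6.59 in the other groups). The 7 markers of embryonic stem cells summed to 6064 to 6494 TMM CPM in IPO13+/+ and 5331 to 5533 in IPO13-/- libraries. Of these, Pou5f1, Esrrb, Zfp42 and Dppa5a were lower and Nanog higher in untreated IPO13-/- cells. Sox2, Nanog and Tdgf1 fell after H2O2 in both genotypes and Zfp42 in IPO13+/+ cells, while Pou5f1, Esrrb and Dppa5a rose in IPO13-/- cells. The part of the stem cell markers in the results on ER genes was not tested. The 5 fibroblast markers summed to between 6.29 and 7.43 without and between 7.89 and 9.19 after H2O2, with Col3a1 at 0 in 3 libraries and Postn at 0 in 5. Among them only Col1a1 passed the test as rising, in both genotypes (log2 fold change 0.97 in IPO13+/+ and 0.64 in IPO13-/- cells). Thy1 fell in IPO13+/+ cells (-0.26). In these bulk libraries a smaller number of cells of 1 type cannot be told apart from less RNA per cell.

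Calreticulin (Calr), the chaperones Hsp90b1 and Hspa5 and the disulfide isomerases P4hb and Pdia3 were the most abundant of the 33 transcripts per length in untreated IPO13+/+ cells. Per kilobase of exons Calr stood at 280 TMM CPM, Hsp90b1 at 242 ± 2.85, Hspa5 at 233 ± 10.9, P4hb at 201 ± 10.9 and Pdia3 at 201 ± 2.18 (SD, n = 2), with an SD of 0.119 for Calr. The libraries of Hsp90b1 and Hspa5 overlapped, as did those of P4hb and Pdia3, while Calr lay above all others. Xbp1 held the middle of the order (16.1 ± 1.27), and the lowest levels were those of Derl2 (2.53), Derl3 (1.75), a derlin best known from secretory tissue, and the sensor Ern1 (1.01 ± 0.0786). Of the 32 pairs of neighbours in the order, 12 overlapped between libraries.

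**Figure D1:**
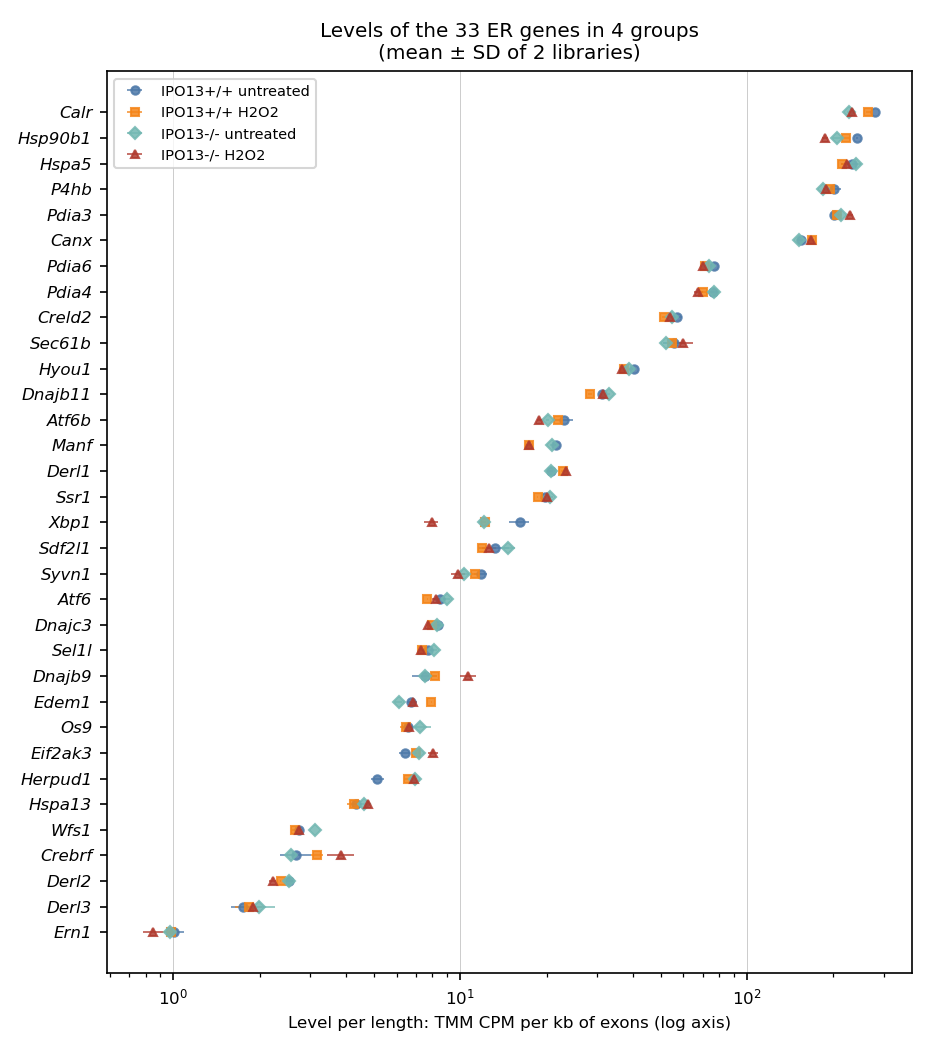
Level of each of the 33 genes per length (TMM CPM per kilobase of exons, log axis) in the 4 groups, as mean and SD of 2 libraries, ordered by the untreated IPO13+/+ cells. Calr leads at 280 and Ern1 closes the order at 1.01, and for nearly all genes the groups lie close together compared with the spread between genes.

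The first comparison asks how the ER genes responded to H2O2 in cells that have IPO13. In IPO13+/+ cells 5 of the 33 genes rose (15.2%; 11.5% of the 19424 genes tested rose) and 9 fell (27.3%; 13.8% of genes tested), by log2 values between 0.11 and 0.40, and 0 changed by 2-fold or more (2.9% of genes tested did). Among the 12198 genes with a mean above 1 CPM, a closer match in abundance, 15.1% rose and 21.4% fell. The degradation genes Herpud1, Edem1 and Derl1 rose together with Crebrf and the lectin chaperone Canx. The chaperone, cochaperone and isomerase genes Hspa5, Hsp90b1, Hyou1, Dnajb11 and Pdia4 fell, as did Creld2, Manf, Xbp1 and Atf6. Of these falls only those of Manf and Xbp1 passed in all 17 alternative fits. With library totals in place of TMM factors 6 members rose and 2 fell. The median log2 fold change of the 33 genes was -0.07, against -0.0011 over all genes tested and -0.04 over those above 1 CPM.

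In IPO13-/- cells 8 genes rose after H2O2 (24.2%; 14.9% of genes tested) and 10 fell (30.3%; 14.4% of genes tested), again with 0 at 2-fold (2.89% of genes tested) and a median log2 fold change of -0.08. Among genes with a mean above 1 CPM, 20.8% rose and 21.5% fell, and their median was -0.011. Crebrf and Dnajb9 led the rising genes, which also held Sec61b, Derl1, Edem1, Eif2ak3, Canx and Pdia3. Xbp1 and Manf led the falling ones, followed by Sdf2l1, Derl2, Pdia4, Wfs1, Sel1l, Hsp90b1, Atf6 and Hspa5. Both genotypes called 10 of the 33 genes (30.3%), against 17.1% of all genes tested and 25.1% of those above 1 CPM. A further 4 members passed in IPO13+/+ and not in IPO13-/- cells (12.1%, against 8.21% and 11.3%) and 8 the other way round (24.2%, against 12.3% and 17.2%), which is no test of a difference between genotypes, and 27 had the same sign in both (81.8%, against 66.2% and 75.0%). The libraries before and after H2O2 did not overlap for 7 higher and 15 lower members in IPO13+/+ cells (66.7%, against 55.8% of all genes tested and 68.2% of those above 1 CPM) and for 11 and 17 in IPO13-/- cells (84.8%, against 59.5% and 73.1%).

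**Figure D2:**
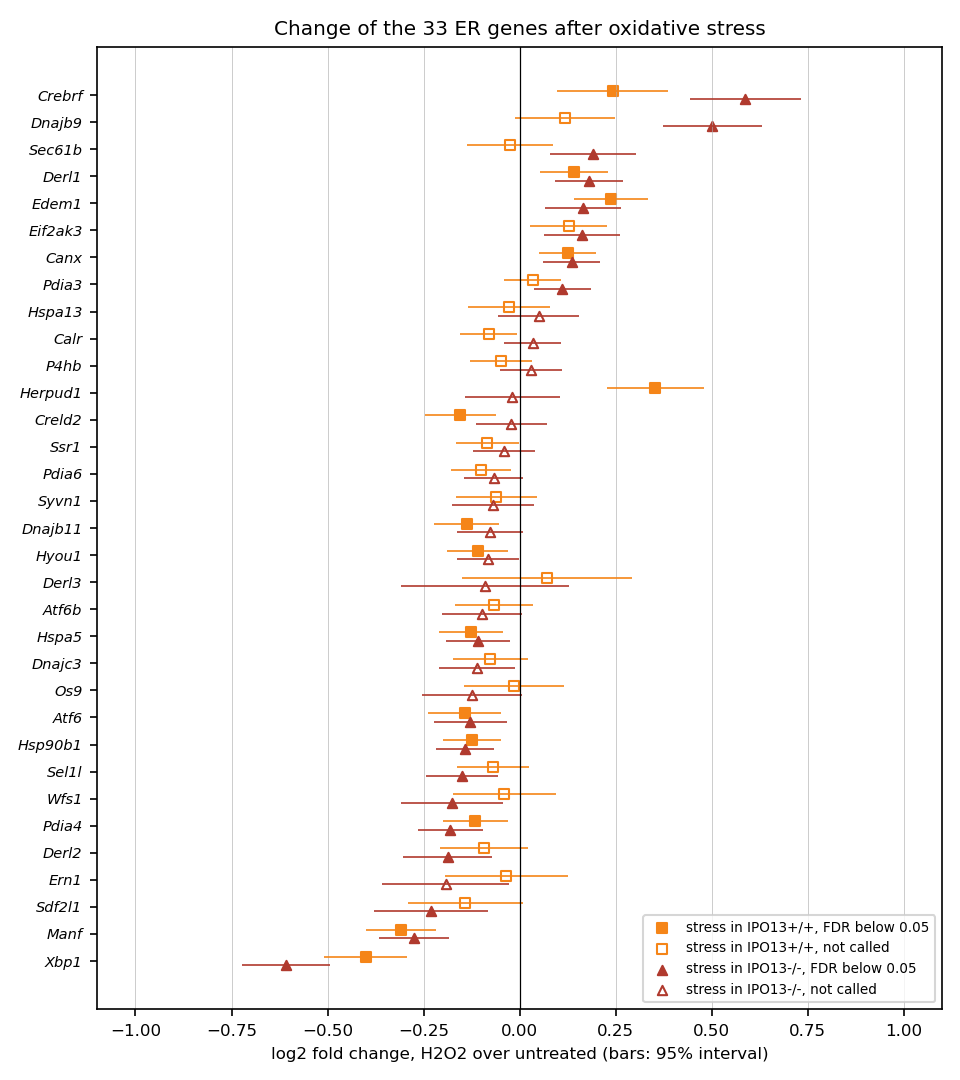
Log2 fold change of each of the 33 genes after H2O2 in IPO13+/+ cells (squares) and IPO13-/- cells (triangles), with 95% intervals from the edgeR fit; filled symbols passed an FDR of 0.05. All values lie between -0.61 and 0.59, with Xbp1 lowest and Crebrf highest in IPO13-/- cells.

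Xbp1, the transcription factor downstream of IRE1, showed the largest fall of the 33 genes in both genotypes. It stood at 49.4 and 55.2 TMM CPM in untreated and 39.3 and 39.9 in stressed IPO13+/+ cells, and at 39.8 and 38.9 in untreated and 24.8 and 26.9 in stressed IPO13-/- cells. The stressed IPO13+/+ and the untreated IPO13-/- libraries lay in the same range and the stressed IPO13-/- libraries lay lowest, with no overlap between treated and untreated libraries of either genotype. Xbp1 fell by 24.3% in IPO13+/+ cells (log2 fold change -0.40 ± 0.053 (SE), edgeR adjusted p = 1.34e-06) and by 34.4% in IPO13-/- cells (-0.61 ± 0.056, adjusted p = 1.68e-09). The difference between these responses was -0.21 (95% interval -0.37 to -0.05), which did not pass the adjustment over all genes (adjusted p = 0.167). Counts per gene do not separate the spliced from the unspliced form of its mRNA.

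The summed levels of markers of 2 other lineages were, like Xbp1, highest in untreated IPO13+/+ and lowest in stressed IPO13-/- cells, each through 1 abundant gene. The 7 primitive endoderm markers, a secretory cell type, summed to 175 to 203 TMM CPM in untreated and 155 to 161 in stressed IPO13+/+ cells, and to 155 to 166 and 127 to 134 in IPO13-/- cells; Lama1 made up most of each sum, Lama1 and Sox7 fell in both stress comparisons, 0 of the 7 rose, and 1 had a positive log2 fold change in IPO13+/+ and 3 in IPO13-/- cells. No marker of the 7 was at 0. The 5 trophectoderm markers summed to 20.5 to 23.6, 16.9 to 18.0, 15.5 to 16.2 and 11.3 to 12.3 in the same 4 groups, mainly through Eomes, which fell in both stress comparisons, with none at 0. Their other members did not all follow Eomes after H2O2: Hand1 rose in IPO13+/+ and Krt7 in IPO13-/- cells. Of the 5, 2 had a negative log2 fold change in IPO13+/+ and 1 in IPO13-/- cells, and the medians were 0.26 and 0.44. The part of these markers in the change of Xbp1 was not tested.

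Crebrf, which encodes a negative regulator of the CREB3 family of ER membrane transcription factors, had the largest rise of the 33 genes in IPO13-/- cells, while in IPO13+/+ cells that of Herpud1 was larger. Its level was 25.0 and 20.9 TMM CPM in untreated and 26.2 and 28.1 in stressed IPO13+/+ cells, and 22.0 and 21.9 against 35.5 and 30.4 in IPO13-/- cells. The stressed libraries lay above the untreated ones in both genotypes, by a narrow margin in IPO13+/+ cells. Crebrf rose by 50.3% in IPO13-/- cells (log2 fold change 0.59 ± 0.070 (SE), adjusted p = 1.88e-07) and by 18.3% in IPO13+/+ cells (0.24 ± 0.071, adjusted p = 0.0113). The call in IPO13+/+ cells was lost without the second untreated or the second stressed IPO13+/+ library, with limma-voom and with only the libraries compared (log2 0.12 to 0.38 and adjusted p up to 0.244 over the alternatives), and the difference between genotypes (0.35, adjusted p = 0.0604) was not past the threshold.

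Dnajb9 encodes ERdj4, a J-domain cochaperone of HSPA5 that restrains IRE1. Its libraries read 20.5 and 17.8 TMM CPM in untreated and 20.5 and 21.1 in stressed IPO13+/+ cells, and 19.4 and 19.1 in untreated and 26.0 and 28.5 in stressed IPO13-/- cells. Only the stressed IPO13-/- libraries stood apart from the rest. Dnajb9 rose by 41.6% in IPO13-/- cells (log2 fold change 0.50 ± 0.062 (SE), adjusted p = 3.71e-07), while the change in IPO13+/+ cells was 0.12 ± 0.064 (adjusted p = 0.198), and the responses differed by 0.38 ± 0.089 (adjusted p = 0.0145).

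Herpud1 encodes an ER membrane protein of the HRD1 ubiquitin ligase complex. Its level was 11.6 and 12.4 TMM CPM in untreated IPO13+/+ cells, 15.6 and 15.0 in stressed IPO13+/+ cells, 16.4 and 16.2 in untreated IPO13-/- cells and 15.9 and 16.3 in stressed IPO13-/- cells. The untreated IPO13+/+ libraries were thus the low ones, and the other 3 groups lay within a narrow band. Herpud1 rose by 27.8% after H2O2 in IPO13+/+ cells (log2 fold change 0.35 ± 0.062 (SE), adjusted p = 7.57e-05) and stood at -0.02 ± 0.060 in IPO13-/- cells (adjusted p = 0.877). The responses differed by -0.37 ± 0.086 (adjusted p = 0.0143).

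Dnajb9 and Herpud1 were the only members whose difference in response between the genotypes passed the threshold, 1 in each direction (3.03% each). Over the genes tested, the log2 fold change was significantly more positive in IPO13-/- than in IPO13+/+ cells for 2.01% and more negative for 0.705%. Among those with a mean above 1 CPM these shares were 3.15% and 1.05%. A difference of 2-fold or more was called for 0.144% of the genes tested. The call for Herpud1 was lost without either stressed IPO13+/+ library, either untreated IPO13-/- library or the first stressed IPO13-/- library (log2 -0.40 to -0.34, adjusted p = 0.0583 to 0.15). That for Dnajb9 was lost without either stressed IPO13+/+ library, either untreated IPO13-/- library or the second stressed IPO13-/- library (0.30 to 0.41, adjusted p = 0.0707 to 0.27), with limma-voom (adjusted p = 0.0887) and with filterByExpr (adjusted p = 0.0515).

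**Figure D3:**
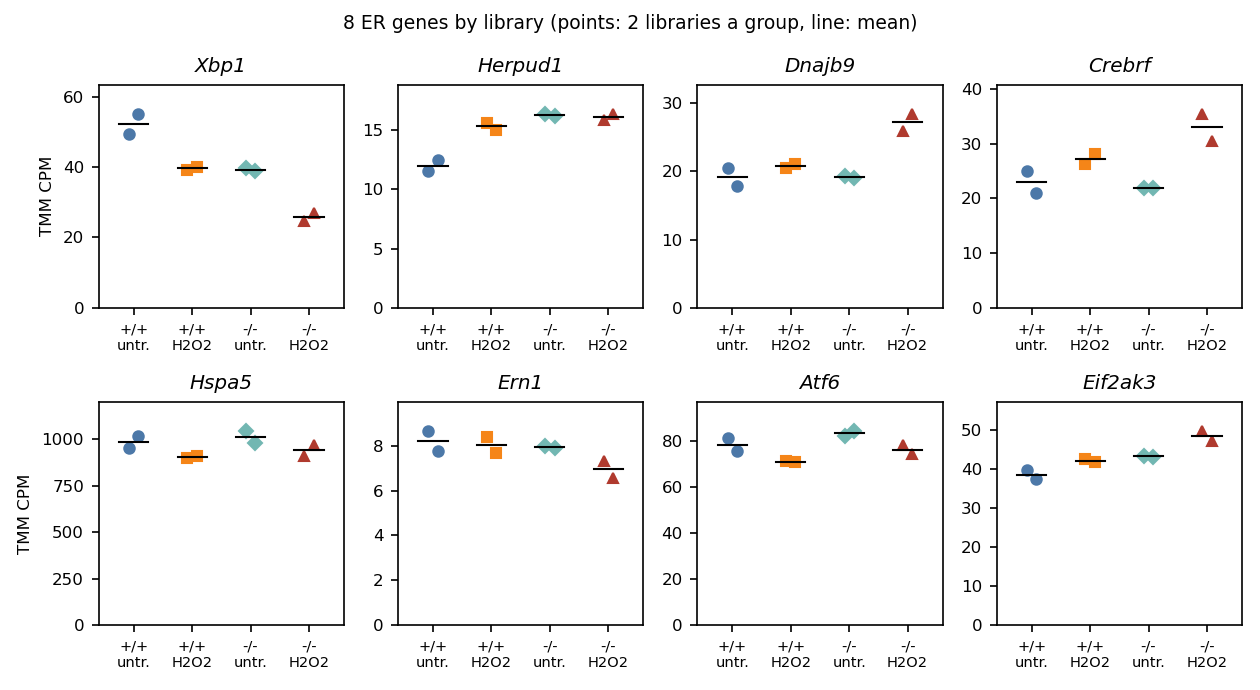
Level of 8 ER genes (TMM CPM, from 0) in each library, with 2 points per group and a line at the mean. Xbp1 steps down from 49.4 and 55.2 to 24.8 and 26.9 across the 4 groups, Herpud1 is low only in the untreated IPO13+/+ libraries and Dnajb9 is high only in the stressed IPO13-/- libraries.

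The HSP70 and HSP90 chaperones changed little. Hspa5, the main chaperone of the ER and sensor of unfolded proteins, was counted at 954 and 1019 TMM CPM before and 900.0 and 909 after H2O2 in IPO13+/+ cells, and at 1046 and 982 before and 912 and 970 after it in IPO13-/- cells. Its stressed libraries lay below the untreated ones in both genotypes. Hspa5 fell by 8.33% in IPO13+/+ cells (adjusted p = 0.0227) and fell by 7.21% in IPO13-/- cells (adjusted p = 0.0460), and adjusted p reached 0.19 and 0.544 over the alternatives. Hsp90b1 (GRP94) fell by 8.26% in IPO13+/+ cells and fell by 9.39% in IPO13-/- cells. Hyou1, the nucleotide exchange factor of HSPA5, fell by 7.27% in IPO13+/+ cells and was not called in IPO13-/- cells (log2 -0.08). Hspa13, an atypical HSP70, gave log2 fold changes of -0.03 and 0.05 that did not pass the test.

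Of the cochaperones, Dnajb11 (ERdj3) fell by 9.13% in IPO13+/+ cells and was not called in IPO13-/- cells (log2 -0.08). Sdf2l1, its partner, fell by 14.8% in IPO13-/- cells and was not called in IPO13+/+ cells (log2 -0.14). Dnajc3 (p58IPK), which binds HSPA5 and PERK, was not called in any comparison. Manf, a secreted trophic factor induced by ER stress, fell by 19.2% in IPO13+/+ cells (log2 fold change -0.31 ± 0.044 (SE), adjusted p = 4.78e-06) and by 17.3% in IPO13-/- cells (-0.27 ± 0.044, adjusted p = 2.22e-05), and these calls held in all 17 alternative fits of each comparison. Creld2, another secreted ER stress protein, fell by 10.1% in IPO13+/+ cells and stood at -0.02 in IPO13-/- cells. The lectin chaperone Canx rose by 9.05% and 9.87%, whereas Calr was not called in either genotype (-0.08 and 0.03). Among the disulfide isomerases, Pdia4 fell by 7.64% in IPO13+/+ and fell by 11.7% in IPO13-/- cells, and P4hb and Pdia6 were not called. Pdia3, the partner of the lectin chaperones, rose by 8.01% in IPO13-/- cells and was not called in IPO13+/+ cells (log2 0.03).

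The degradation genes divided. Edem1, which extracts misfolded glycoproteins from the calnexin cycle, rose by 17.9% in IPO13+/+ and 12.1% in IPO13-/- cells, and Derl1, a derlin of the retrotranslocation complexes, rose by 10.3% and 13.3%. Sel1l, the adaptor of the ligase HRD1, fell by 9.87% and Derl2 fell by 12.2% in IPO13-/- cells. In IPO13+/+ cells Sel1l and Derl2 stood at log2 -0.07 and -0.09 and were not called. The ligase gene itself, Syvn1, the lectin gene Os9 and Derl3 were not called after H2O2. At the translocon, Sec61b rose by 14.1% in IPO13-/- cells (log2 -0.02 in IPO13+/+ cells) and Ssr1 was not called. Wfs1, an ER membrane protein of calcium homeostasis, fell by 11.6% in IPO13-/- cells and was not called in IPO13+/+ cells (log2 -0.04).

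Of the 4 sensors, Ern1 stood at 8.67 and 7.76 TMM CPM before and 8.38 and 7.67 after H2O2 in IPO13+/+ cells, and at 8.02 and 7.89 before and 7.34 and 6.58 after it in IPO13-/- cells. Its libraries overlapped in IPO13+/+ cells and separated in IPO13-/- cells, where the log2 fold change was -0.19 ± 0.080 (SE, adjusted p = 0.0748). Atf6 stood at 81.2 and 75.6 before and 71.2 and 70.7 after stress in IPO13+/+ cells, and at 82.3 and 84.4 before and 78.3 and 74.2 after it in IPO13-/- cells. It fell by 9.45% (adjusted p = 0.0220) and fell by 8.47% (adjusted p = 0.0365), with no overlap of libraries in either genotype, and its paralogue Atf6b was not called. Eif2ak3 stood at 39.7 and 37.4 before and 42.5 and 41.7 after stress in IPO13+/+ cells, and at 43.4 and 43.0 before and 49.8 and 47.1 after it in IPO13-/- cells. It rose by 12.01% in IPO13-/- cells (adjusted p = 0.0105) and narrowly missed the threshold in IPO13+/+ cells (log2 0.13, adjusted p = 0.0543).

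Few of these calls were independent of the settings. In IPO13+/+ cells only Xbp1, Manf, Herpud1 and Edem1 passed in all 17 alternative fits, and in IPO13-/- cells only Xbp1, Manf, Dnajb9, Crebrf, Canx and Derl1. With library totals in place of TMM factors the split was 6 rising and 2 falling in IPO13+/+ cells and 7 rising and 16 falling in IPO13-/- cells, and with relative log expression factors it was 6 and 7 in IPO13+/+ cells.

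**Figure D4:**
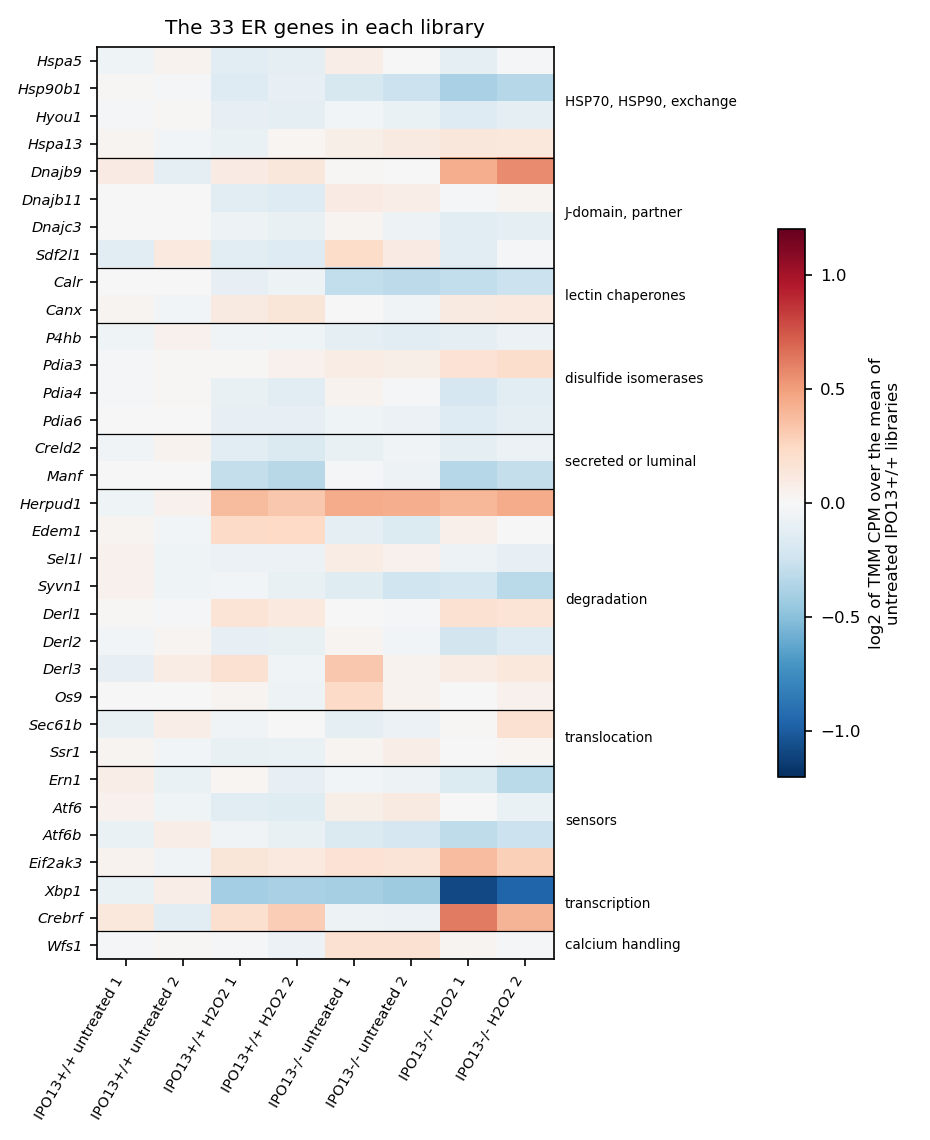
Level of the 33 genes in each of the 8 libraries, as log2 of the TMM CPM over the mean of the untreated IPO13+/+ libraries, grouped by role (red higher, blue lower). Xbp1 is darkest in the stressed IPO13-/- libraries, Herpud1 is higher in all libraries but the untreated IPO13+/+ ones, and Calr and Hsp90b1 are lower in the IPO13-/- libraries.

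The genotypes were then compared without treatment, a comparison that shares its IPO13+/+ libraries with that of stress in IPO13+/+ cells and its IPO13-/- libraries with that of stress in IPO13-/- cells. In untreated IPO13-/- cells 3 genes were higher than in untreated IPO13+/+ cells (9.09%; 18.7% of genes tested) and 7 were lower (21.2%; 19.4% of genes tested), with 0 at 2-fold (4.71% of genes tested). Among genes with a mean above 1 CPM, 25.1% were higher and 28.4% lower, both above the shares of the members. Herpud1 was higher by 35.7% (log2 difference 0.44 ± 0.061 (SE), adjusted p = 1.48e-06), and Wfs1 and Eif2ak3 by 13.6% and 12.2%. Xbp1 fell by 24.8% (-0.41 ± 0.053, adjusted p = 4.55e-07), Calr by 19.2% (-0.31 ± 0.036, adjusted p = 7.97e-08) and Hsp90b1 by 14.6% (-0.23 ± 0.037, adjusted p = 1.58e-05). Syvn1 fell by 12.5%, Atf6b fell by 12.1%, Edem1 fell by 8.97% and P4hb fell by 8.21%.

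Calr read 808 and 807 TMM CPM in untreated IPO13+/+ and 657 and 647 in untreated IPO13-/- cells. Its IPO13-/- libraries lay well below those of IPO13+/+ cells, also after H2O2, at 659.9 and 675 against 752 and 775. Hsp90b1 read 983 and 967 against 852 and 815 without treatment. Of the exon bases of Hsp90b1, 10.3% are shared with the antisense gene 1810014B01Rik, and of those of Eif2ak3 8.05% with the antisense gene Gm43292, and the strand setting of the counting is not given in the sources used here. Libraries did not overlap for 9 higher and 10 lower members (57.6%, against 62.2% of all genes tested and 74.6% of those above 1 CPM). Calr, Hsp90b1, Herpud1 and Xbp1 passed in all 17 alternative fits, but the balance of the rest turned with the scaling: with library totals in place of TMM factors 13 genes were higher and 3 lower in IPO13-/- cells, where the median of all genes above 1 CPM moved from -0.019 to 0.062.

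After H2O2 6 genes were higher in IPO13-/- than in IPO13+/+ cells (18.2%; 19.1% of genes tested) and 7 lower (21.2%; 17.5% of genes tested), with 0 at 2-fold (4.56% of genes tested). Among genes with a mean above 1 CPM, 26.5% were higher and 24.4% lower, again above the shares of the members. Dnajb9 was higher by 30.9% (log2 difference 0.39 ± 0.062 (SE), adjusted p = 1.2e-05), Crebrf by 21.3%, Eif2ak3 by 15.0%, Hspa13 by 12.01%, Pdia3 by 11.4% and Dnajb11 by 10.8%. Xbp1 fell by 34.9% (-0.62 ± 0.056, adjusted p = 9.97e-10), Hsp90b1 by 15.6%, Atf6b by 14.0%, Edem1 by 13.5%, Ern1 by 13.2%, Syvn1 by 13.1% and Calr by 12.6%. The call for Ern1 was close to the threshold (edgeR adjusted p = 0.0478). It was lost with limma-voom, DESeq2, library totals, filterByExpr, a minimum of 10 counts, no filter and only the libraries compared, and in some fits without 1 library. The log2 difference of Ern1 lay between -0.29 and -0.13 over the alternatives. Libraries did not overlap for 13 higher and 12 lower members (75.8%, against 65.0% of all genes tested and 78.1% of those above 1 CPM), and the calls for Xbp1, Dnajb9, Hsp90b1, Eif2ak3, Atf6b, Calr, Pdia3 and Edem1 passed in all 17 alternative fits. Over the 5 comparisons, Derl3, Dnajc3, Os9, Pdia6 and Ssr1 were called in none.

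Beside these genes, 5 further lists of the same pathways were followed. The PERK and ATF4 branch, the arm that PERK shares with other kinases of the integrated stress response, held the largest share of rising genes among these lists: 12 of its 22 genes rose and 1 fell in IPO13+/+ cells (median log2 fold change 0.23), and 12 rose and 0 fell in IPO13-/- cells (0.24). This is 54.5% rising in each, against 11.5% and 14.9% of all genes tested and 15.1% and 20.8% of those above 1 CPM. The list was chosen with earlier results of these data known, so these shares describe its genes and are no test of the branch. The same counts ranged over the alternatives from 9 to 12 and from 10 to 14 rising genes. In this list 4 genes reached 2-fold in IPO13+/+ and 2 in IPO13-/- cells. Of the 33 ER genes 0 did in either comparison, which is near the share of all genes tested (2.9% and 2.89%).

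Atf3, a transcription factor induced through ATF4, stood at 2.61 ± 0.2504 TMM CPM before and 10.8 ± 0.306 after H2O2 in IPO13+/+ cells (SD, n = 2), and at 2.80 ± 0.0325 and 8.68 ± 0.571 in IPO13-/- cells. Its log2 fold changes were 2.05 and 1.63. Ddit4, an inhibitor of mTORC1 signalling, gave 1.35 and 1.46, and Ddit3 (CHOP), the transcription factor of the terminal response, gave 1.00 and 0.97 from 4.14 and 4.21 TMM CPM. Chac1, a glutathione-degrading enzyme and ATF4 target, rose from 2.44 and 2.97 to 6.83 and 6.24 TMM CPM in IPO13+/+ cells and from 7.51 and 6.83 to 9.22 and 9.31 in IPO13-/- cells. Its untreated IPO13-/- libraries thus already lay at or near the level of stressed IPO13+/+ cells (log2 difference between untreated genotypes 1.41, adjusted p = 3.78e-12), and its responses of 1.27 and 0.37 differed (-0.90, adjusted p = 6.73e-05).

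**Figure D5:**
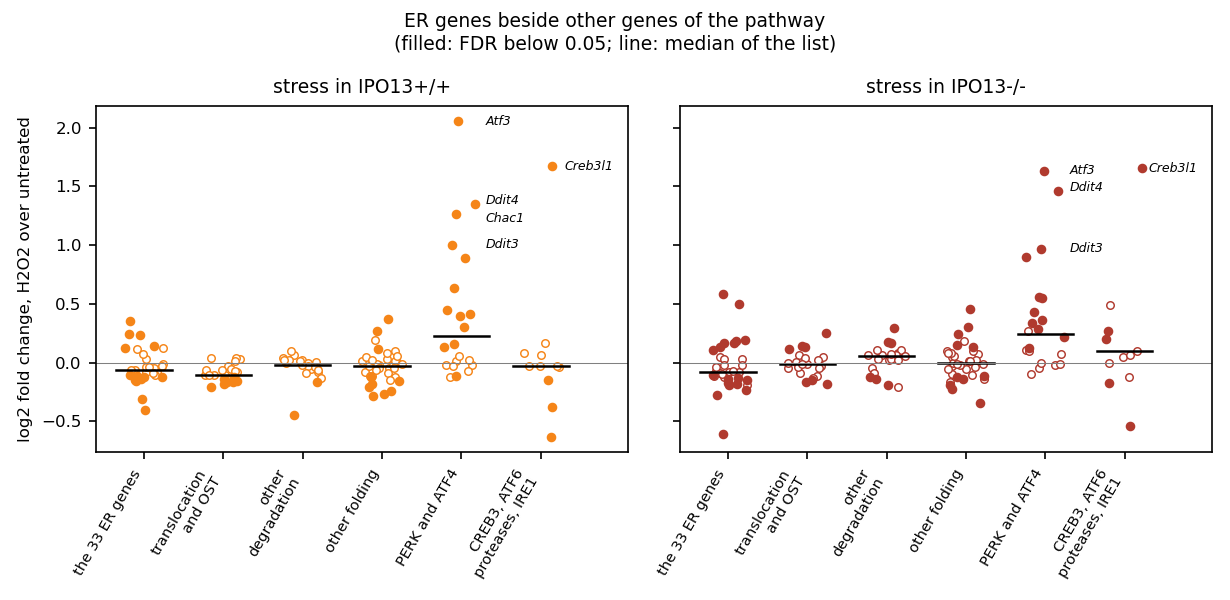
Log2 fold change after H2O2 of the 33 ER genes and of the 5 further lists, in IPO13+/+ cells (left) and IPO13-/- cells (right); each point is a gene, filled where the FDR is below 0.05, and the line is the median of the list. Cdnf, Ern2, Pdia2, Scara3 and Slc7a11, with means below 0.5 TMM CPM, are not drawn; Atf3 (2.05 and 1.63) and Creb3l1 (1.67 and 1.65) stand highest.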

How the data were processed

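Per the labels and the methods, poly(A) RNA of 8 mESC libraries (4 groups of 2) was made into TruSeq mRNA libraries and read as paired ends. The authors deposited raw read counts per gene symbol together with CPM values, which equal the count over the library total to within 0.0005. The submitters' processing notes list mm10, STAR 2.3.1, HTSeq, bcl2fastq and limma; the strand setting is not given in the sources used here. Of 23420 symbols, 4 rows repeat a symbol. A count of 3 was taken as the floor of detection, which covers counting error only.

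Genes at 0 in every library were left out, and the counts of the remaining 19424 were fitted together in edgeR 4.0.16 (R 4.3.3; TMM factors, quasi-likelihood F test, 8 libraries in 1 model without covariates), with p-values adjusted over all of these genes (FDR, threshold 0.05). The 5 contrasts were H2O2 in each genotype, genotype without and with H2O2, and their interaction. The standard error of a log2 fold change is its size over the square root of F. Percentages of change were computed from the fitted fold changes. The fit was tested on simulated data. Levels per kilobase used GENCODE M21 exon unions (GRCm38). Promoter windows were those of RefSeq on GRCm38.p6, matched by symbol, with none found for Atf6, Derl1, Hspa13, Hyou1 and Manf. March6 and Rtcb, of the further lists, matched no symbol.

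The rule for the members uses symbols alone, but the members and lists were chosen with earlier results of these data known. Values per library were given for members past the threshold with a log2 change of at least 0.4 or an interaction past the threshold, and for Hspa5, Xbp1, Ern1, Atf6 and Eif2ak3. Of each further list, genes called at 2-fold and the 2 largest changes per stress comparison were named. Library values of Calr and Hsp90b1 were added after their values were seen.

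Alternatives were limma-voom (limma 3.58.1), DESeq2 1.42.0, scaling by relative log expression or by library totals alone, filterByExpr (15191 genes), at least 10 counts over all libraries (17081 genes), no filter, a replicate block, only the libraries compared, and each of the 8 libraries left out in turn, which makes 17 fits for a comparison of 2 groups and 16 for the interaction. Where a library was left out, the lone library of its group was assumed to vary like the other groups. Tables and plots were made with Python 3.11.15, pandas 2.3.3 and matplotlib 3.10.9.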

Additional observations from a re-analysis of the deposited data

Results flagged for a closer look

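For 2 of the 33 ER genes the difference in response to H2O2 between genotypes passed the threshold, and for 1 more the libraries moved in opposite directions. Herpud1 had a smaller response in IPO13-/- cells (difference of log2 fold changes -0.37, edgeR FDR 0.014) and Dnajb9 a larger one (0.38, FDR 0.015). For Calr the stressed libraries lay below the untreated ones in IPO13+/+ cells and above them in IPO13-/- cells, and the test of that difference did not pass (0.11, FDR 0.27).

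Of the further lists, Chac1 responded less in IPO13-/- cells (-0.90, FDR 6.7e-05), past the threshold in 16 of 16 alternative fits (-1.05 to -0.77). Nfe2l2, which encodes NRF2, the main transcription factor of the oxidative stress response, responded more in IPO13-/- cells (0.25, FDR 0.036) and passed in 5 of 16 fits. Creb3l3, a CREB3 family gene of the ER membrane, had an interaction of 1.12 (FDR 0.044) and passed in 4 of the 15 fits that gave a value. Groups of 2 libraries are too small for a test of outlying libraries.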

How the results depend on the processing

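Of the 57 calls of ER genes over the 5 comparisons, 22 passed under every alternative and 35 were lost under at least 1, and 0 values reversed. Most calls are changes of under 0.2 on the log2 scale, close to what scaling or 1 library can move. The cause was not tested.

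For stress in IPO13+/+ cells, 14 of the 33 genes were called (5 higher, 9 lower), against 8 with library totals (6 and 2), 10 with DESeq2 (5 and 5), 13 with relative log expression factors (6 and 7) and 6 from only the libraries compared, where 3163 of all genes were called in place of 4908. Leaving out 1 library gave 5 to 19 members and 2952 to 4729 genes, with 5 without either stressed IPO13+/+ library, 8 without the second untreated IPO13+/+ or either untreated IPO13-/- library and 9 without either stressed IPO13-/- library. For stress in IPO13-/- cells, 18 members (23 with library totals, 7 higher and 16 lower) and 5704 genes became 7 to 19 and 3204 to 6455, with 7 and 9 without the first and second untreated and 8 without the first stressed IPO13-/- library.

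Between untreated genotypes, 10 members (3 higher, 7 lower) became 16 with library totals (13 and 3), and 6 to 11 of them and 5227 to 7284 of 7411 genes were called without 1 library, with 6 without either untreated IPO13-/- library. After H2O2, 13 members became 9 to 16, and 7115 genes became 5278 to 7753. For the interaction, 2 members were called, against 1 with limma-voom or filterByExpr and 0 to 4 without 1 library; 527 genes became 255 with limma-voom, 287 with DESeq2, 349 with filterByExpr and 73 to 1157 without 1 library. With library totals the interaction gave 1 higher and 2 lower members.

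No label says that a replicate number marks a shared culture or day. The deviations of same-numbered libraries correlated at 0.284, 0.32 and 0.572 in 3 of the 6 pairs of groups and between -0.063 and 0.003 in the other three, so the numbers were not taken to pair the samples. With the replicate block, 16, 19, 13, 16 and 5 members were called in the 5 comparisons, and 1291 genes for the interaction.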

Other observations

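The counts of each list are read against the shares of all genes tested that responded to H2O2. In IPO13+/+ cells 11.5% rose and 13.8% fell (15.1% and 21.4% of genes above 1 CPM). In IPO13-/- cells 14.9% rose and 14.4% fell (20.8% and 21.5%). In the list of CREB3 family factors, ATF6 proteases and IRE1 partners, 1 of 13 genes rose and 3 fell after H2O2 in IPO13+/+ cells, and 3 rose and 2 fell in IPO13-/- cells. Creb3l1, which encodes the ER membrane transcription factor OASIS, rose from 5.08 ± 0.134 to 16.1 ± 0.398 TMM CPM in IPO13+/+ cells (SD, n = 2) and from 4.03 ± 0.452 to 12.6 ± 0.150 in IPO13-/- cells, by 1.67 and 1.65 on the log2 scale, and these calls passed in 17 of 17 alternative fits. Its relative Creb3l2 fell by 0.38 and 0.54 on the log2 scale. Among the translocation and oligosaccharyltransferase genes, 0 of 22 rose and 7 fell in IPO13+/+ cells, and 4 rose and 3 fell in IPO13-/- cells. Stt3b, a catalytic subunit of the oligosaccharyltransferase, fell by 0.20 and 0.16. After H2O2, 11 of these 22 genes were higher in IPO13-/- than in IPO13+/+ cells and 1 was lower (against 19.1% and 17.5% of all genes tested and 26.5% and 24.4% of those above 1 CPM), and the count of higher genes ranged from 7 to 11 over the alternatives.

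Of the other folding genes, 3 of 37 rose and 7 fell in IPO13+/+ cells, and 5 rose and 6 fell in IPO13-/- cells. Fkbp10, a prolyl isomerase of collagen folding, rose by 0.38 and 0.46 on the log2 scale, and Mogs, the glucosidase that starts the trimming of N-glycans, fell by 0.28 and 0.34. The call for Mogs in IPO13+/+ cells was lost without the second untreated IPO13+/+ library and with only the libraries compared (log2 -0.41 to -0.14 over the alternatives). Of the other degradation genes, 0 of 21 rose and 2 fell in IPO13+/+ cells, and 3 rose and 3 fell in IPO13-/- cells. The largest fall in IPO13+/+ cells was that of Ube2j2, a ubiquitin-conjugating enzyme of the ER membrane (log2 fold change -0.44), whose stressed libraries read 12.4 and 8.46 TMM CPM; the call was lost without the second of them (-0.19).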
